A study of Homo sapiens with 2 samples.

Results

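The genes described here encode CTCF and the cohesin complex with its loader and regulators: CTCF, RAD21, SMC1A, SMC3, STAG1, STAG2, NIPBL, WAPL, PDS5A and PDS5B. They are 10 of 20037 protein-coding genes, and every accessibility peak from 5 kb before to 5 kb after their RefSeq bounds (GRCh38) was taken. That window held 152 of 213285 peaks of the control library and 222 of 302466 peaks of the knockdown library, which merged into 267 of 359137 regions. Members were chosen by name, not by a cut on their signal, though earlier results of these data were known.

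ATAC-seq marks open chromatin by letting the Tn5 transposase insert adapters there, and it was run on U2OS, an established human osteosarcoma cell line. One culture was infected with a control hairpin (sh-ctrl) and the other with a hairpin labelled VNGD (sh-VNGD), and the series title names the long non-coding RNA Vanguard. Both were grown in the same medium, 50000 cells entered each library, and no clone, time after infection or hairpin sequence is given in the labels. Each group is 1 library, so no difference has a replicate check, no p-value is given, and the 95% intervals cover counting error only.

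CTCF is a zinc finger protein that binds DNA and stops the extruding cohesin ring, which sets the borders of many chromatin loops. Cohesin is a ring of SMC1A, SMC3 and RAD21, to which 1 of the STAG proteins binds; NIPBL loads it and drives loop extrusion, PDS5A and PDS5B bind the ring, and WAPL releases it from DNA. The same ring holds sister chromatids together until division and takes part in DNA repair after replication.

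Promoter sequences show what kind of starts these genes have. Of the 10 genes, 9 matched the RefSeq promoter table (GRCh38.p14), which runs from 250 bases before to 50 bases after each start; RAD21 had no match. Motifs were chosen after the sequences had been seen and were searched on both strands, and a match is a description of letters, not of binding. The GC box GGGCGG, a Sp/KLF-type motif, was in 9 of 9 members and in 64.3% of 15843 protein-coding genes with an entry, each gene counted once over all its listed starts. GC content ran from 56.0% at SMC3 to 76.3% at WAPL, beside a median of 62.3% over all entries. The first stretches shown are the 250 bases before the starts of CTCF, the gene with the highest promoter pileup of the 10, and of SMC1A, the X-linked ring subunit. Capitals mark GC boxes on the opposite strand in CTCF and the ETS-type motif CCGGAAG in SMC1A, whose own GC boxes stay in lower case.
CTCF, chr16:67562276-67562525, plus strand: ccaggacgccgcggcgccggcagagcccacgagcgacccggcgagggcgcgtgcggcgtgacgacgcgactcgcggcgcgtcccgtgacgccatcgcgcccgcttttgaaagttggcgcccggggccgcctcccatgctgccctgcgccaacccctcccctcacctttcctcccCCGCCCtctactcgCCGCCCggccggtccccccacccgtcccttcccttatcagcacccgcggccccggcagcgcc
SMC1A, chrX:53422729-53422978, minus strand: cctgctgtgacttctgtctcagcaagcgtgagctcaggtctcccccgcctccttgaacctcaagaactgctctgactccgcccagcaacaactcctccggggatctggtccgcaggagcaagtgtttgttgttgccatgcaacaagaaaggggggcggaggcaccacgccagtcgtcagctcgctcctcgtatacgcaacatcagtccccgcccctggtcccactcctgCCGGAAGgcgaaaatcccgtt

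STAG1 was the member with letters of the CTCF motif core at its own start. The string searched was CCA, 2 bases of any kind, AG, 2 bases of any kind, then GGC. It occurred at bases −40 to −29 and again at bases 19 to 30 from the start, counted with the first transcribed base as 1, and was in 3.35% of the 15843 genes. The first match overlaps a GC box at −32 to −27, and an NRF1-type string (GCGC, 1 base of any kind, TGCGC) lies at −166 to −157. Its upstream stretch is shown with the first match in capitals, followed by the window around the second.
STAG1 upstream, chr3:136752379-136752628, minus strand: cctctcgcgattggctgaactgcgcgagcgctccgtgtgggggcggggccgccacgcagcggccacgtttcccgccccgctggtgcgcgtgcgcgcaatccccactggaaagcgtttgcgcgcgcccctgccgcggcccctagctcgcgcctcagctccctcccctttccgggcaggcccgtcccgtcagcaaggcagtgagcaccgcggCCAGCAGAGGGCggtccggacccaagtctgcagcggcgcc
STAG1 second match, chr3:136752341-136752368, minus strand: ggaaaatgCCACCAGATGGCgggttagg

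The YY1-type string CCATNTTG, which carries the letters bound by the architectural factor YY1, was in 4 of 9 listed members and in 7.20% of the 15843 genes. STAG2, with 3 listed starts, had it at the second alone. It sat close to the start in CTCF, SMC3, PDS5B and STAG2, where it runs on the opposite strand in 2 copies. Capitals mark the match in each window, all on the plus strand.
CTCF, chr16:67562544-67562571: cgcgccgccgCCATTTTGtgtctgagcc
SMC3, chr10:110567678-110567705: acgagcgccgCCATTTTGtttggctgag
PDS5B, chr13:32586443-32586470: gcgcttggcgCCATTTTGaagcggagag
STAG2, chrX:123961312-123961339: atgggtggccCAAAATGGagaacgcgga
The NRF1-type string was in STAG1, STAG2 and WAPL (9.67% of genes), and the ETS-type string in NIPBL and SMC1A (16.5%). CCAAT, the NFY-type box, was in 5 of 9 members, beside 42.1% of genes.

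Most of these promoters face a second start. In 8 of 9 listed members another RefSeq entry starts on the opposite strand within 1000 bp upstream, compared with 22.1% of 15843 genes with an entry. The distances were 7 bp at PDS5B, 75 bp at NIPBL, 145 bp at SMC1A, 155 bp at WAPL, 217 bp at CTCF, 293 bp at STAG1, 387 bp at SMC3 and 717 bp at STAG2. The partner is a divergent transcript named after the member in 5 of these, STAG2-AS1 at STAG2, LOC105378483 at SMC3 and the protein-coding gene RIBC1 at SMC1A. PDS5A had no such partner listed. A promoter peak can therefore lie over both starts, and its value cannot be assigned to 1 of them.

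All 10 members had a promoter peak in both libraries. A promoter region is a merged peak region within 1000 bp of a listed start; at RAD21 the outer gene end with the higher summed pileup stood in for the start. The level is the authors' summit pileup, the number of tags covering the peak's highest point, not scaled for depth. The median over the main promoter regions was 99.5 sh-ctrl and 104 sh-VNGD tags, beside 76 and 75 over 13690 genes with a promoter peak in both. In sh-ctrl 8 of 10 members lay above that median, and in sh-VNGD 6 did.

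**Figure D1:**
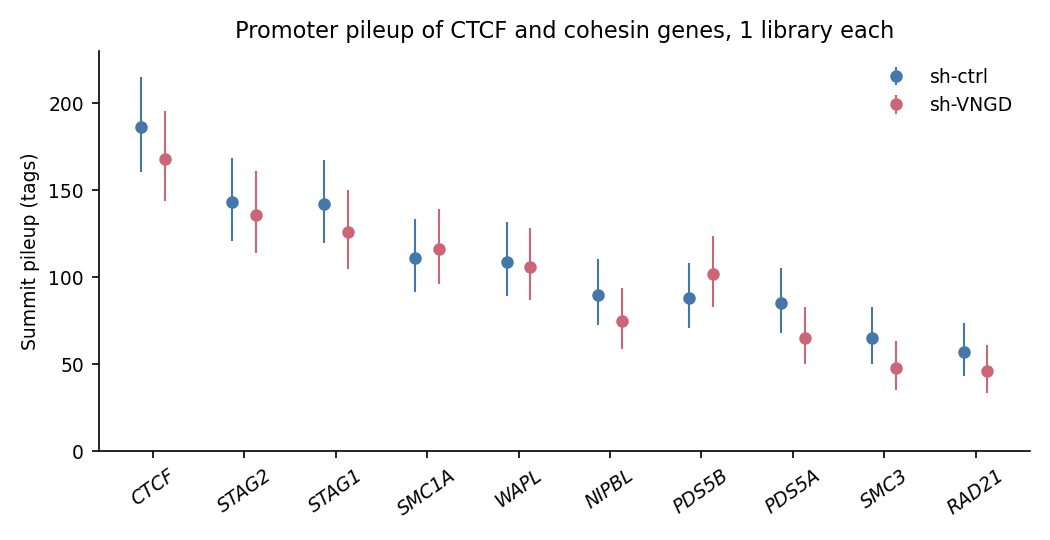
Summit pileup in tags at the main promoter region of each of the 10 genes, 1 point per library (sh-ctrl and sh-VNGD), with exact Poisson 95% intervals that cover counting error only. CTCF stood highest in both libraries, at 186 and 168 tags, and the intervals of the libraries overlap at every gene.

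The sh-VNGD library kept 1.37 times the tags of sh-ctrl (31326715 against 22931980), although fewer had been read (48164322 against 51628228), because 35% rather than 56% of its tags fell on repeated positions. Pileup did not follow the kept depth: the median ratio of sh-VNGD to sh-ctrl, divided by kept tags, was −0.45 on the log2 scale over all promoters and −0.26 over all inner regions. Each log2 ratio below is therefore given relative to the median of its own class, called the centre. Of 8 osteosarcoma and mesenchymal markers, the highest region in the gene held 131 sh-ctrl and 96 sh-VNGD tags at RUNX2, 94 and 91 at VIM, 94 and 75 at COL1A1, 75 and 80 at ALPL, 25 and 25 at SPARC, 12 and 41 at TWIST1 and 11 and 19 at COL1A2, and BGLAP had no peak. Several markers of other cell types were as high. Among epithelial genes the highest regions were at KRT8 (194 and 154), CDH1 (163 and 138), EPCAM (139 and 108) and TP63 (93 and 47). Among haematopoietic genes CD3E held 112 and 82 and SPI1 105 and 113, whereas PTPRC was low (19 and 23). Many of these regions are not promoters: SPARC, VIM, TP63 and PTPRC had no promoter peak. The promoter held 38 and 43 tags at RUNX2 and 13 and 14 at ALPL. TWIST1, COL1A1, COL1A2, EPCAM, CDH1, CD3E and SPI1 had no listed start and were placed by gene end, where a region can belong to a neighbour. The highest region anywhere in a gene thus did not separate the labelled lineage from the others. Since some regions may belong to neighbours, these lists cannot decide on lineage.

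CTCF, the DNA-binding member, had the highest promoter pileup. By the authors' fold enrichment over local background it was not the highest, at 10.5 in sh-ctrl and 9.98 in sh-VNGD, beside 14.5 and 13.2 at PDS5B. Its region chr16:67561767-67562923 held 186 sh-ctrl and 168 sh-VNGD tags, above 98.1% and 97.3% of genes with a promoter peak. The log2 ratio to the centre was −0.15 (−0.46 to 0.16). The summits lay at −332 and −422 bp from the start, and a second promoter region held 41 and 37 tags.

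The ring genes had lower promoter pileups than CTCF. Their fold enrichments were above that of CTCF in sh-ctrl, at 12.5 for SMC1A, 11.1 for SMC3 and 11.2 for RAD21. In sh-VNGD SMC1A (14.0) was above CTCF, and SMC3 (7.66) and RAD21 (8.67) were below it. SMC1A, an ATPase arm of the ring, held 111 sh-ctrl and 116 sh-VNGD tags at chrX:53422021-53423109, with a log2 ratio of 0.06 (−0.32 to 0.45). SMC3, the other ATPase arm, held 65 and 48 tags at chr10:110567147-110568298, and its ratio of −0.44 (−1.01 to 0.12) was the lowest of the 10. The SMC3 summits lay at −350 and −346 bp from its start, nearer to the divergent start than to its own, whereas the SMC1A summits lay at −36 and −39 bp from the outer start.

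RAD21, the kleisin that closes the ring, held 57 and 46 tags at chr8:116874097-116875090, above 37.4% and 29.2% of genes, with a ratio of −0.31 (−0.90 to 0.28). Here the caller drew 1 sh-ctrl peak but 2 sh-VNGD peaks. Summing them gave 82 sh-VNGD tags and turned the ratio to 0.52 (0.02 to 1.04), so the direction at RAD21 depends on how the peak was split. The sum sets 2 summit heights against 1, so that interval does not measure counting error at the same position.

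STAG1 and STAG2 encode alternative subunits that contact the ring and CTCF, and their promoters were almost equally high. STAG1 held 142 sh-ctrl and 126 sh-VNGD tags at chr3:136752009-136753250, a ratio of −0.17 (−0.53 to 0.18). STAG2 held 143 and 136 tags at chrX:123962872-123963371, a ratio of −0.07 (−0.42 to 0.28). The highest STAG2 region is not at a start: its summits lay 1124 and 1122 bp past the third listed start, and the 2 lower regions held 100 and 89 tags and 51 and 38 tags. With a window of 500 bp, STAG2 is represented by the region of 100 and 89 tags and the ratio is −0.16.

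NIPBL, the loader, held 90 sh-ctrl and 75 sh-VNGD tags at chr5:36876487-36876926, with a ratio of −0.26 (−0.72 to 0.20). Its other promoter regions held 47 and 47 tags and 31 and 28 tags. WAPL, the release factor, held 109 and 106 tags at chr10:86521482-86522283, and its ratio of −0.04 (−0.44 to 0.36) was the nearest to the centre.

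The paralogues PDS5A and PDS5B, which bind the ring beside WAPL, differed in direction. PDS5A held 85 sh-ctrl and 65 sh-VNGD tags at chr4:39977542-39978227, a ratio of −0.39 (−0.88 to 0.10). PDS5B held 88 and 102 tags at chr13:32585976-32586649, a ratio of 0.21 (−0.21 to 0.64), the highest of the 10. Both intervals include the centre and overlap each other. A second PDS5B region, chr13:32587088-32587478, had a peak of 44 tags in sh-VNGD and none in sh-ctrl.

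Across the 10 promoters, pileup was higher in sh-ctrl at 8 and in sh-VNGD at 2. The 8 lay below the centre, as did 49.8% of 13690 genes. The members' median log2 ratio was −0.16 to the centre. That median lies inside the middle range of all genes, whose quartiles were −0.18 and 0.19. No member lay 1.5-fold or more from the centre (3.34% of all genes lay below it by that fold and 6.9% above). No member's interval lay wholly to 1 side (4.28% of all genes below, 4.36% above). Relative to the centre, no difference in highest pileup was detectable at any single member at this depth. The summed RAD21 interval lay above the centre, but it sets 2 sh-VNGD summits against 1 sh-ctrl summit. By the authors' fold enrichment over local background the ratios of CTCF (0.05), STAG1 (0.18) and STAG2 (0.05) lay above the centre and that of PDS5B (−0.01) below it. Divided by kept tags without centring, the median was −0.61 and 6 members lay 1.5-fold below 0, as did 31.6% of all genes. On that scale 8 members, all but SMC1A and PDS5B, had an interval wholly below 0, as did 48.5% of all genes.

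**Figure D2:**
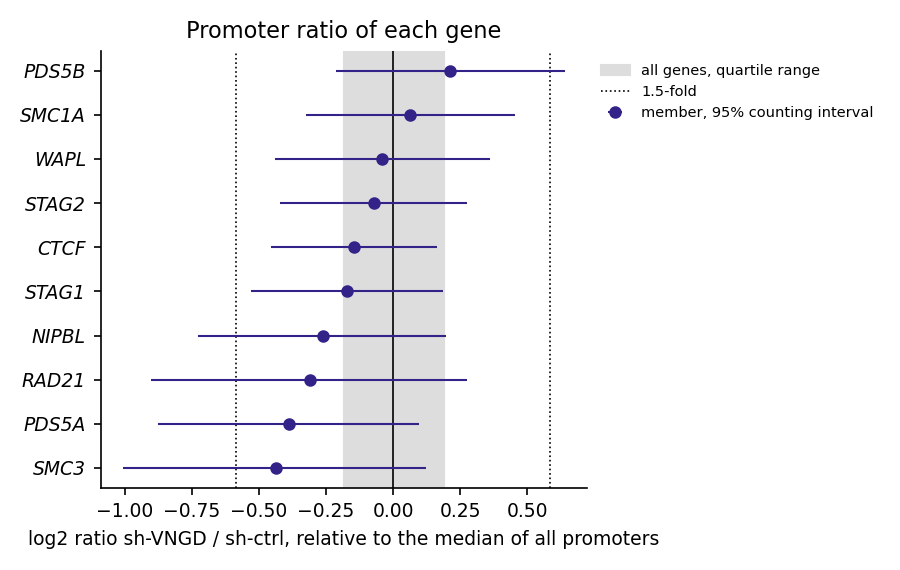
Log2 ratio of sh-VNGD to sh-ctrl pileup at the main promoter region of each gene, relative to the median over all genes (0 on the axis), with exact 95% counting intervals; the shaded band spans the quartiles of all genes and the dotted lines mark 1.5-fold. Every interval crosses 0, from SMC3 at −0.44 to PDS5B at 0.21.

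Inside the genes the peaks were more numerous and much lower. An inner region overlaps the gene bounds and is no promoter region of any protein-coding gene. The members held 126 sh-ctrl and 188 sh-VNGD inner peaks, with median pileups of 13 and 15 tags, beside 14 and 16 over all genes. Promoter peaks numbered 16 and 18, with medians of 86.5 and 56.5 tags over all of them, minor ones included, beside 57 and 53. Promoter peaks were also longer, at medians of 640 and 429.5 bp against 231.5 and 239 bp inside. Fold enrichment separated the classes less, at 10.3 and 7.71 for promoter peaks against 4.99 and 4.80 for inner peaks.

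Few inner peaks of the members were tall. Those of at least 30 tags made up 7.14% of inner peaks in sh-ctrl (9 peaks) and 7.45% in sh-VNGD (14 peaks), against 20.4% and 15.8% over all genes. Peaks per 100 kb of gene ran from 5.22 at CTCF to 14.4 at SMC1A in sh-ctrl and from 6.93 at RAD21 to 20.8 at WAPL in sh-VNGD. Over 8436 genes of at least 20 kb the medians were 8.32 and 11.5, and 8 and 9 of the 10 members lay above them. The low share of tall peaks therefore stood beside a density of peaks that was mostly above the median.

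Peaks of the promoter class were shared between libraries more often than inner peaks. Of promoter peaks, 93.8% (Wilson 95% interval 71.7 to 98.9) in sh-ctrl and 88.9% (67.2 to 96.9) in sh-VNGD overlapped a peak of the other library by at least 1 bp. For inner peaks the shares were 64.3% (55.6 to 72.1) and 43.6% (36.7 to 50.8). The same shares over all genes were 92.4% and 87.4% for promoter peaks and 69.3% and 49.4% for inner peaks, so the contrast between the classes was also present genome-wide.

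Of 232 inner regions, 81 (34.9%) were called in both libraries, 45 (19.4%) by sh-ctrl alone and 106 (45.7%) by sh-VNGD alone. Over 158925 inner regions of all genes the shares were 40.3%, 18.0% and 41.7%. The sh-VNGD list was longer and its kept depth greater. With the lists cut to equal length, the overlap shares of the members' inner peaks were 55.6% (sh-ctrl) and 52.6% (sh-VNGD); the part of kept depth was not tested. Peaks found in 1 library were low, at most 20 sh-ctrl and 30 sh-VNGD tags.

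The genes differed in this mix. Regions called by sh-VNGD alone were 6 of 10 at CTCF, 15 of 27 at NIPBL, 10 of 19 at WAPL, 15 of 30 at PDS5A, 9 of 21 at STAG2, 30 of 71 at STAG1, 13 of 32 at PDS5B, 4 of 8 at SMC3, 4 of 11 at SMC1A and 0 of 3 at RAD21. Among 4964 genes with at least 10 inner regions the median share was 42.1%, with quartiles of 33.3% and 50.0%. CTCF (60.0%), NIPBL (55.6%) and WAPL (52.6%) lay above the upper quartile. STAG1, the longest of the 10 genes at 416 kb, lay near the median, at 42.3%.

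**Figure D3:**
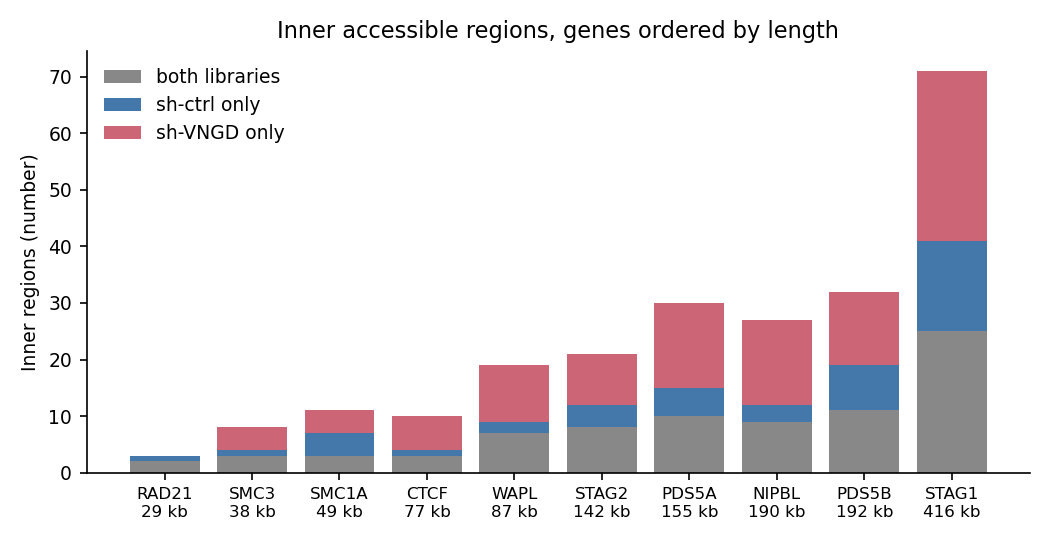
Number of inner regions of each gene called in both libraries, sh-ctrl alone or sh-VNGD alone, as stacked bars from 0. STAG1 holds 71 of the 232 regions, and RAD21 has none called by sh-VNGD alone.

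The tallest inner region of the 10 genes lay in STAG1. At chr3:136484334-136485172, 268 kb from the start, it held 166 sh-ctrl and 158 sh-VNGD tags, with fold enrichments of 18.0 and 13.2. It exceeded the STAG1 promoter 1.17 times in sh-ctrl (0.929 to 1.47) and 1.25 times in sh-VNGD (0.986 to 1.60), and both intervals include equality. STAG1 was the 1 member of 10 with an inner peak above its promoter, in both libraries. Among 8436 genes of at least 20 kb, a length all 10 members pass, 24.5% had an inner peak above the promoter in both libraries, and among the 2601 genes of at least 100 kb 40.9% did. Whether the region is exonic or intronic was not determined, since exon positions were not used here.

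The next tallest were a region near the far end of STAG1 and one beside the PDS5A promoter. The former, chr3:136343605-136344267, 408 kb from the start, held 65 and 64 tags, with a log2 ratio of −0.22 (−0.74 to 0.31) to the inner centre. The latter, chr4:39976400-39976860, 1.28 kb into PDS5A, held 53 and 50 tags, with a ratio of −0.28 (−0.86 to 0.31). The tall STAG1 region stood at −0.26 (−0.59 to 0.06). All 3 were present in both libraries and no interval left the centre.

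**Figure D4:**
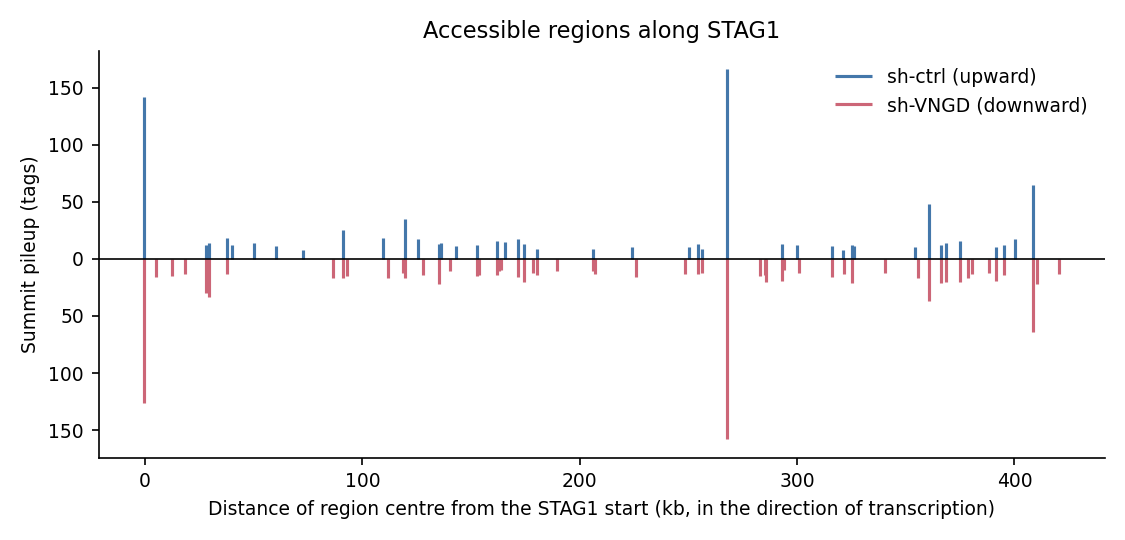
Peaks of both libraries along STAG1, as distance of the region centre from its start in kb (x axis) and summit pileup in tags (y axis, sh-ctrl upward and sh-VNGD downward). The peak 268 kb into the gene reaches 166 sh-ctrl and 158 sh-VNGD tags, above the promoter peaks of 142 and 126.

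Over the 81 inner regions called in both, the median log2 ratio was 0.13 to the inner centre, with 52 above and 28 below it. Divided by kept tags without centring, the same median was −0.13, so its sign turned. Over all inner regions with a ratio the quartiles were −0.31 and 0.32, with 31944 above the centre and 31653 below it. At 1.5-fold, 6 lay below (12.2% of all inner regions did) and 11 above (11.1%); intervals lay wholly below at 2 (7.94%) and wholly above at 3 (2.56%). The counts of 6 and 11 are 7.41% and 13.6% of the 81, near the background. By mean height, the members' median was 0.14 below 15 tags (34 regions; 0.07 over all such regions) and 0.13 from 15 to 20 (25 regions; 0.11). It was 0.37 from 20 to 30 tags (13 regions; 0.05) and −0.26 at 30 or more (9 regions; −0.17).

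The lowest ratio among regions of at least 30 tags lay in CTCF itself. At chr16:67632217-67633042, 70.1 kb into the gene, the pileup was 50 sh-ctrl and 24 sh-VNGD tags, a log2 ratio of −1.25 (−2.02 to −0.52), with fold enrichments of 8.67 and 4.68. In STAG1, chr3:136632550-136633139 held 35 and 17 tags, a ratio of −1.23 (−2.16 to −0.36). In PDS5B, chr13:32660064-32660786 held 46 and 33 tags, a ratio of −0.67 (−1.36 to 0.005). The first pair are the 2 regions whose interval lay wholly below the centre.

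The highest ratios among regions of at least 30 tags lay in STAG1 and PDS5B. Regions of fewer tags reached similar ratios, such as 0.88 in RAD21 (10 sh-ctrl and 21 sh-VNGD tags) and 0.81 in PDS5A (12 and 24). The RAD21 region has a neighbour, chr8:116851222-116851532, that held 22 and 18 tags, a ratio of −0.48 (−1.47 to 0.48). In STAG1, chr3:136723990-136724452 held 12 sh-ctrl and 30 sh-VNGD tags, a ratio of 1.13 (0.12 to 2.23). Its neighbour chr3:136722695-136723129 held 14 and 33 tags, a ratio of 1.04 (0.10 to 2.06), and both lie 28.2 to 29.5 kb into the gene. In PDS5B, chr13:32715620-32716152 held 18 and 36 tags, a ratio of 0.81 (−0.05 to 1.71). Beside it, chr13:32717110-32717519, named for its interval after its values were seen, held 12 and 29 tags, a ratio of 1.08 (0.07 to 2.19). These regions had sh-ctrl pileups close to the inner median of 13, where few tags set the ratio.

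Peaks found in 1 library were of similar low height. The tallest sh-ctrl-only inner peaks held 20 tags in RAD21, 18 in STAG1 and 17 in WAPL, where 3 regions tied at 17. The tallest sh-VNGD-only inner peaks held 30 tags in NIPBL (chr5:36878771-36878988, 2.11 kb past the start), 25 in WAPL and 24 in NIPBL, where 2 regions tied at 24. The absence of a call in a library says that no peak passed the caller's cutoff there, not that no tags were present.

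**Figure D5:**
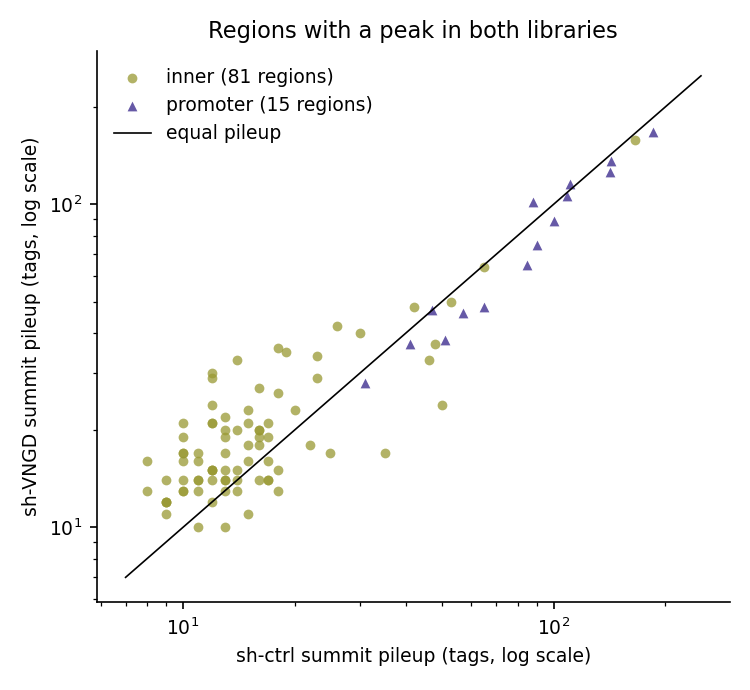
Pileup in sh-ctrl (x axis) and sh-VNGD (y axis), both in tags on log axes, for the promoter and inner regions of the 10 genes with a peak in both libraries. Main promoters lie between 46 and 186 tags, most inner regions lie below 30, and the tall inner region of STAG1 lies among the promoters at 166 and 158; the line marks equal pileup.

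Outside the gene bounds, within 5 kb, the members had 10 peaks in sh-ctrl and 16 in sh-VNGD. The tallest sh-ctrl peak lay beside RAD21, at chr8:116844014-116844533 (58 tags, and 32 in sh-VNGD), as high as the RAD21 promoter in sh-ctrl. The region beside CTCF, chr16:67642015-67642485, held 47 and 42 tags. Those beside NIPBL (31 and 40), WAPL (28 and 36) and SMC3 (31 and 36) were higher in sh-VNGD by unscaled pileup. No centre was computed for regions outside the gene bounds. Over all inner regions the median unscaled log2 ratio was itself 0.19.

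Other genes of loop formation and sister chromatid cohesion were read from a list of 38. Of these, 35 had a promoter peak in both libraries. Their median log2 ratio was −0.10, with 25 below the centre, beside 49.8% of all genes. None of the 35 lay 1.5-fold below (3.34% of all genes did) and 1 lay above (6.9%). That 1 was NSMCE2, a SUMO ligase of the SMC5/6 complex, at 64 sh-ctrl and 98 sh-VNGD tags. Its ratio was 0.61 (0.15 to 1.09), and −0.09 by fold enrichment. NSMCE2 had no listed start and was placed by gene end, and the highest region in the gene held 102 sh-ctrl and 98 sh-VNGD tags. The next highest were the securin gene PTTG1 (56 and 72 tags, 0.36) and RAD21L1, a meiotic kleisin (56 and 71 tags, 0.34).

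Of the 35 ratios, 2 had an interval wholly below the centre (4.28% of all genes did) and 1 wholly above (4.36%). Counts this small do not set the list apart from all genes. The lowest were the 2 genes with intervals below the centre and 1 without. NCAPH, the kleisin of condensin I, held 71 and 48 tags, a ratio of −0.56 (−1.12 to −0.02). MAZ, a zinc finger protein that acts with CTCF at DNA, held 120 and 86 tags, a ratio of −0.48 (−0.90 to −0.07). By fold enrichment the MAZ ratio was 0.07, and in sh-VNGD another region of the gene was higher, at 103 tags. AURKB, the mitotic kinase, held 62 and 44 tags, a ratio of −0.49. By role the medians were −0.19 for 6 loading and release genes, −0.21 for 6 protection and cleavage genes, −0.08 for 7 factors acting with CTCF, −0.13 for 8 condensin genes and −0.09 for 5 of 6 SMC5/6 genes. REC8 and NSMCE3 had no promoter peak in either library.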

How the data were processed

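ATAC-seq libraries of U2OS cells, 1 per group, were grouped by the treatment in the labels. Peaks were called with MACS 2.1.0.20150731 on each library without a control, per the file headers, with a q cutoff of 0.05, 1 tag kept per position, tags shifted by 100 bp and extended to 200 bp. The submitters' processing notes name MACS2 2.1.2 instead, with Bowtie2 2.2.5, deepTools, hg38 and GRCh38.p13. Alignment filters are not given in the sources used here. The deposited pileup is a signal, whole tags at the summit, unscaled for depth. The −log10 p and q values and the fold enrichment (a ratio over local background) are the authors' own, as deposited. The lists in the shorter format repeated the longer ones on every line and were not used.

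Only peaks of chromosomes 1 to 22, X and Y entered; they were merged across libraries where they overlapped by 1 bp, and the highest pileup per library was kept. Starts came from the RefSeq promoter table for 15842 genes and otherwise from the gene end with the higher summed pileup (4195 genes). The ratio was log2 of sh-VNGD over sh-ctrl pileup, with an exact Clopper-Pearson 95% interval, relative to the median of its class over all genes. Regions with a peak in 1 library gave no ratio. Shares have Wilson 95% intervals. Low pileups give wide intervals, and the script was tested on simulated data. All 10 members were named with their promoter; of inner regions, the 3 tallest, the 3 highest and lowest ratios of at least 30 tags and the 3 tallest found in 1 library; of related genes, the 3 highest and lowest promoter ratios and those in 1 library only. Members, lists and rules were chosen with earlier results of these data known. Alternatives covered summed pileup, fold enrichment, a stricter q, scaling, equal list lengths, overlap, window and bounds. Python 3.11.15, pandas 2.3.3, NumPy 2.4.6, SciPy 1.17.1 and matplotlib 3.10.9 were used. One marker gene of the lists is not reported here.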

Additional observations from a re-analysis of the deposited data

How the results depend on the processing

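Of 165 recomputed values, 147 were counted as near the reported one and 18 as moved. Leaving out the STAG1 gene, an alternative chosen after seeing the data, moved none. Values counted as near include some whose sign turned: the inner median without centring, and CTCF, STAG1, STAG2 and PDS5B by fold enrichment. They also include values that an alternative left identical, such as the promoter ratios with lists of equal length, so the count is no measure of robustness. By fold enrichment the median of promoter peaks over that of inner peaks was 2.05 in sh-ctrl and 1.61 in sh-VNGD, against 6.65 and 3.77 by pileup. With a −log10 q of at least 5, sh-ctrl inner peaks numbered 83 rather than 126 and sh-VNGD flank peaks 10 rather than 16. Divided by kept tags without centring, the promoter median was −0.61 and 6 members passed 1.5-fold, against −0.16 and 0; the inner median turned from 0.13 to −0.13. With lists of equal length, overlap shares of inner peaks became 55.6% (sh-ctrl) and 52.6% (sh-VNGD), against 64.3% and 43.6%, and sh-VNGD flank peaks numbered 9. That alternative shortens the sh-VNGD list. With the full lists the overlapping inner peaks numbered 81 in sh-ctrl and 82 in sh-VNGD. The shares thus differ mainly by the number of peaks they are divided by, and similar numbers bring them together by arithmetic. Gene bounds alone leave 0 and 0 flank peaks by construction. The cause of the other changes was not tested. With 50% reciprocal overlap RAD21 gave no ratio. No replicate could be left out and no paired analysis was possible because each group is 1 library. Inner peaks near 13 tags have intervals too wide to show changes of 1.5-fold.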

Other observations

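Promoter peaks were present at some germline counterparts of the members. Divergent starts were listed for the members only, so these peaks may also lie over a neighbour's start. Their values cannot be assigned to the germline genes alone. STAG3, the meiotic STAG subunit, had a promoter peak of 97 tags (sh-ctrl) and 107 tags (sh-VNGD). SMC1B, the meiotic counterpart of SMC1A, held 39 and 42 tags. CTCFL, the testis paralogue of CTCF, had a promoter peak of 18 tags in sh-VNGD and none in sh-ctrl, while the highest region anywhere in the gene held 115 and 133 tags. The 3 meiotic genes with a ratio, RAD21L1 among them, had a median log2 ratio of 0.14 to the centre, and all 3 intervals include the centre. By fold enrichment RAD21L1 lay at −0.002.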
